A study of Arabidopsis thaliana with 10 samples.

Results

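GIS (AT3G58070) and SIM (AT5G04470) are regulators of trichomes, the hairs that arise from single cells of the leaf epidermis. They were followed through an Arabidopsis thaliana array series in which the activity of the CIN-TCP genes had been lowered or raised. The members were the probe sets that the platform annotation gives to these genes, 1 for each, so 2 of the 22746 probe sets that were not array controls. Total RNA of vegetative shoot apices from soil-grown plants under short days was hybridised to 10 arrays, 2 in each of 5 groups. The miR-3TCP plants made, under the 35S promoter, a designed microRNA that targets TCP5, TCP13 and TCP17, and their age code in the labels was 14 DAS. The miR319b plants overexpressed from 35S the natural microRNA that targets TCP2, TCP3, TCP4, TCP10 and TCP24, at 17 DAS. The octa plants, at 18 DAS, were taken to be the combination of both microRNAs given in the design, which lowers all 8 CIN-TCP genes. In the BLS>>TCP4 plants, at 14 DAS and of the Ler accession, TCP4 was driven by BLS, a promoter specific to leaves. The unaltered plants were of the Col accession, at 14 DAS, and the 3 microRNA groups were also in Col. No unaltered Ler plants were among the samples used here, so accession and TCP4 expression cannot be told apart in any comparison with BLS>>TCP4, and age cannot be told apart from genotype where the ages differ.

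CIN-TCP transcription factors restrain cell proliferation in growing leaves and promote the passage of leaf cells to differentiation. A trichome forms when an epidermal cell is selected by an activator complex, stops dividing and enlarges while it copies its DNA without mitosis, a process called endoreduplication. GIS encodes a C2H2 zinc finger transcription factor that promotes trichome initiation on inflorescence organs downstream of gibberellin. SIM, short for SIAMESE, encodes a plant-specific inhibitor of cyclin-dependent kinases that holds the trichome precursor out of mitosis, and plants without it form multicellular trichomes.

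Signals were linear MAS5 intensities, with each array's median at 50. The mean over all probe sets was 191 and 198 in BLS>>TCP4 and 141 to 156 on the other 8 arrays. The log2 difference between replicates had a standard deviation of 0.44 in BLS>>TCP4 and of 0.24 to 0.30 in the other groups. Of the 6 genes fixed as markers of the shoot apex only CLV3, a stem cell peptide gene, had a named probe set, and its signal of 0.654 to 7.26 on the 10 arrays was below the filter used for testing. The 8 activators of trichome initiation on the fixed lists, GL1, GL2, GL3 and TTG1 among them, and the 8 CIN-TCP genes are not analysed here.

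GIS was a dim probe set. Its signal was 24.3 and 37.6 on the 2 miR-3TCP arrays, 14.8 and 28.6 on the miR319b arrays, 29.1 and 23.5 on the octa arrays, 60.7 and 35.9 on the BLS>>TCP4 arrays, and 20.3 and 23.4 on the Col arrays. The first BLS>>TCP4 array was the highest of the 10, but the second lay below 1 of the miR-3TCP arrays. The microRNA groups ran into each other. The Col arrays lay between the 2 miR319b arrays and just below those of miR-3TCP and octa. Averaged over all arrays GIS stood at 29.8, just above the filter of 27.2, and 41.2% of probe sets had a lower mean. Over the 8 arrays other than BLS>>TCP4 its mean was 25.2, below that filter, so GIS was among the tested probe sets only through its signals in BLS>>TCP4. An adjusted p under 0.05 for GIS against another group is therefore given as a value and not as support for a difference.

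SIM was brighter and was lowest in BLS>>TCP4. Its signal was 96.1 and 104.9 on the miR-3TCP arrays, 132.7 and 141.4 on the miR319b arrays, 141.0 and 130.6 on the octa arrays, 48.5 and 78.0 on the BLS>>TCP4 arrays, and 81.8 and 135.4 on the Col arrays. Both BLS>>TCP4 arrays lay below the other 8, a pattern that 11.7% of the 13648 tested probe sets showed. The miR319b and octa arrays were close together at the top, whereas the 2 Col arrays stood far apart, 1 just above BLS>>TCP4 and the other among the miR319b and octa arrays. The mean of SIM over all arrays was 109, and 65.6% of probe sets had a lower mean.

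**Figure D1:**
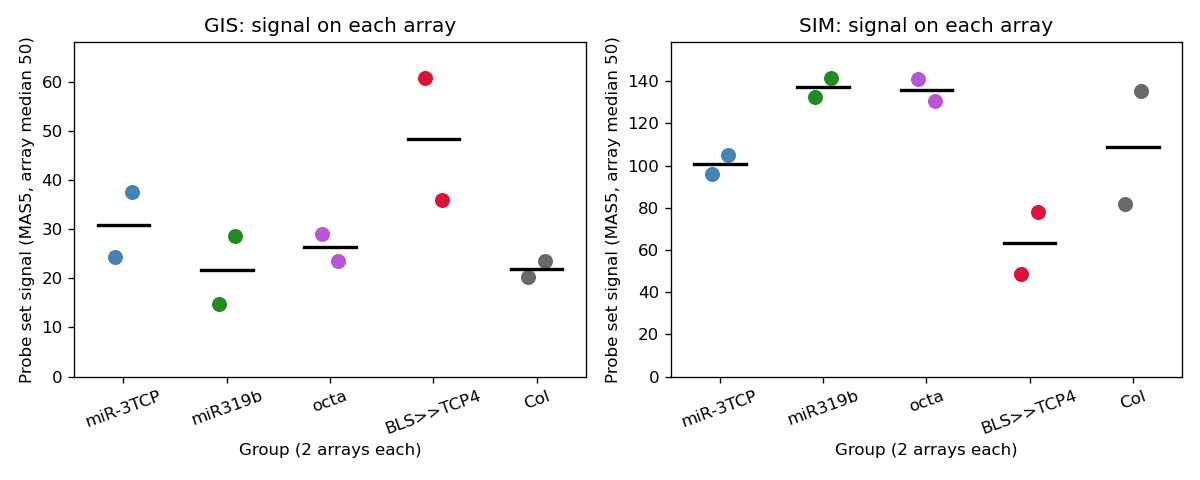
Signal of GIS (left) and SIM (right) on every array, on a linear axis from 0. Each point is 1 array, the bar is the mean of the 2 arrays of a group, and the 5 groups run along the horizontal axis with Col last. GIS reached 60.7 and 35.9 in BLS>>TCP4 against 20.3 and 23.4 in Col, and SIM had its lowest values, 48.5 and 78.0, in BLS>>TCP4.

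Both genes varied more between replicates than most probe sets. On the log2(signal + 16) scale the within-group standard deviation was 0.29 for GIS and 0.27 for SIM, against a median of 0.17 over the tested probe sets, and 86.6% and 83.5% of these had a smaller one. For GIS the replicates were widest apart in BLS>>TCP4 and miR319b (log2 standard deviations of 0.40 and 0.38), and closest in Col (0.08). For SIM they were widest apart in Col (0.45) and BLS>>TCP4 (0.38), and close in miR-3TCP, miR319b and octa (0.08, 0.06 and 0.07).

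BLS>>TCP4 was set against Col, a comparison in which TCP4 expression in leaves and the Ler accession differ together. GIS was the higher and SIM the lower in BLS>>TCP4, and SIM did not pass the test. GIS averaged 48.3 ± 17.6 in BLS>>TCP4 and 21.9 ± 2.19 in Col (SD, n = 2 each), a log2 difference of 0.74 ± 0.24 (SE, limma, adjusted p = 0.0495). With no filter on dim probe sets the same difference had an adjusted p of 0.082. The arrays of the groups did not overlap, as for 38.1% of tested probe sets that were higher in BLS>>TCP4. SIM averaged 63.3 ± 20.8 in BLS>>TCP4 and 108.6 ± 37.9 in Col, a log2 difference of -0.64 ± 0.22 (limma adjusted p = 0.0601). Its groups did not overlap either, as for 22.0% of probe sets that were lower. In this comparison 17.4% of tested probe sets were called higher and 8.71% called lower. A larger positive difference than that of GIS was found in 8.94% of them, and a larger negative one than that of SIM in 7.58%.

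Single arrays moved GIS and SIM across the threshold. The first BLS>>TCP4 array had both the highest GIS and the lowest SIM of the series. Without that array GIS differed from Col by 0.45 (limma adjusted p = 0.221) and SIM by -0.37 (adjusted p = 0.26). Without the second BLS>>TCP4 array the differences were 1.02 (adjusted p = 0.0193) for GIS and -0.92 (adjusted p = 0.0196) for SIM. SIM also turned on which Col array was kept, with -0.96 (adjusted p = 0.0288) without the first and -0.33 (adjusted p = 0.373) without the second. With the replicate number as a block in the fit, GIS was not under the threshold (adjusted p = 0.0607) and SIM was (adjusted p = 0.039). Leaving out either Col array took GIS over the threshold as well, with 0.68 (adjusted p = 0.191) and 0.80 (adjusted p = 0.126) without the first and the second.

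**Figure D2:**
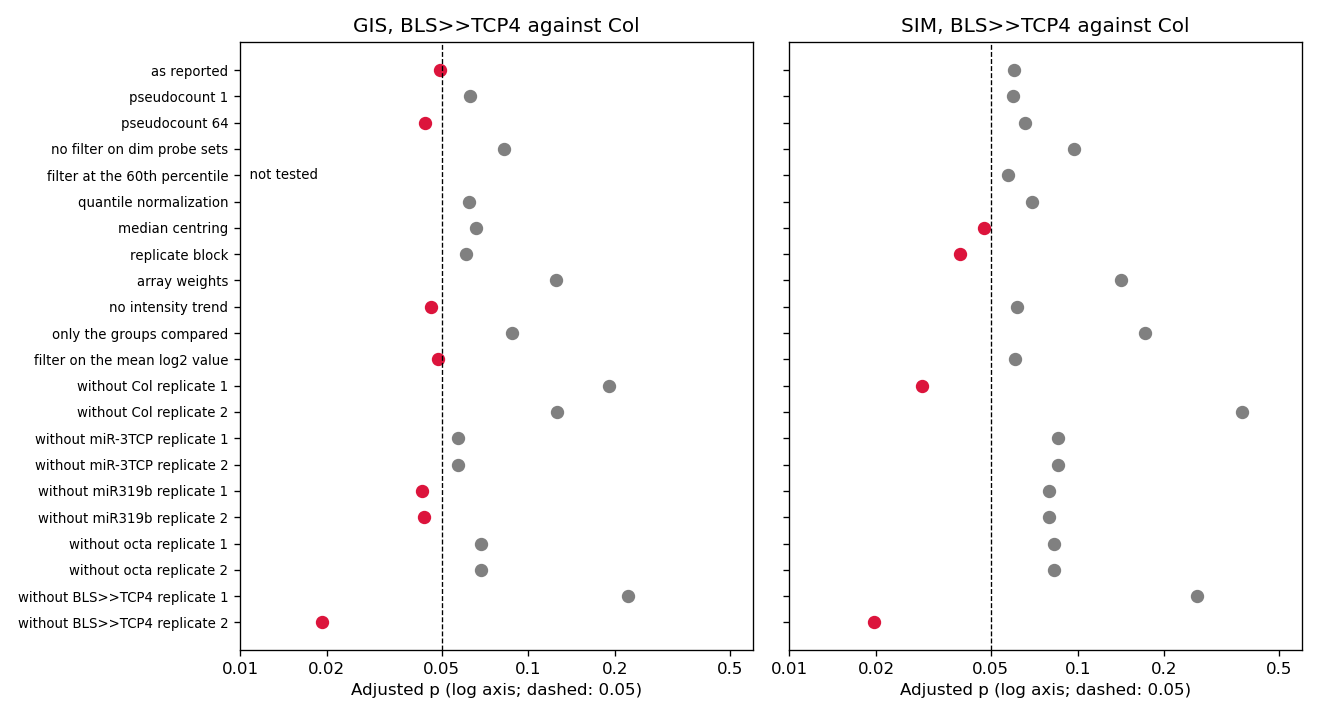
Adjusted p of GIS (left) and SIM (right) for BLS>>TCP4 against Col, from the limma model as reported (top) and under each alternative, on a log axis with the threshold of 0.05 dashed. Red points are below the threshold and GIS was not tested with the filter at the 60th percentile. The values lie on both sides of the line for both genes, from 0.0193 to 0.221 for GIS and from 0.0196 to 0.373 for SIM over the alternatives.

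The widest contrast of CIN-TCP activity in the design is TCP4 gain against the lowering of all 8 genes, BLS>>TCP4 against octa. Here SIM fell, with a mean of 63.3 ± 20.8 in BLS>>TCP4 and 135.8 ± 7.32 in octa (SD, n = 2 each). Its log2 difference was -0.96 ± 0.22 (SE, limma adjusted p = 0.00836), with a 95% interval of -1.46 to -0.46. GIS, at 48.3 ± 17.6 in BLS>>TCP4 and 26.3 ± 3.95 in octa, differed by 0.58 ± 0.24 (adjusted p = 0.0936) and did not pass. Without the first BLS>>TCP4 array GIS differed by 0.30 (adjusted p = 0.396) and without the second by 0.86 (adjusted p = 0.0301). Neither gene overlapped between these groups, as for 41.7% of tested probe sets that were higher and 21.8% that were lower. In this comparison 9.87% of tested probe sets were called lower and 24.2% higher, and 3.91% had a larger decrease than SIM. The SIM call was lost without the first octa array (log2 difference -0.91, adjusted p = 0.0518).

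BLS>>TCP4 was also set against the other microRNA groups, in comparisons added after the data had been seen. Against miR319b, SIM fell (-0.97 ± 0.22, SE, limma adjusted p = 0.00856). GIS differed by 0.77 ± 0.24 (adjusted p = 0.0358, and 0.0617 with no filter), having passed the filter only through BLS>>TCP4. In this comparison 10.9% of tested probe sets were called lower and 21.3% higher. The arrays of these groups did not overlap for either gene, as for 23.2% of tested probe sets that were lower and 37.4% that were higher. The SIM call was kept under all 21 alternatives, with adjusted p-values from 0.00383 to 0.0496. The adjusted p of GIS was over the threshold under 10 of 20 alternatives, with 0.49 (adjusted p = 0.176) without the first BLS>>TCP4 array and 0.50 (adjusted p = 0.228) without the first miR319b array. Against miR-3TCP neither gene passed, GIS with 0.44 ± 0.24 (adjusted p = 0.219) and overlapping arrays, SIM with -0.58 ± 0.22 (adjusted p = 0.0889) and arrays apart, as for 22.5% of tested probe sets that were lower. In that comparison 16.2% were called higher and 7.58% lower. Leaving out the first or the second BLS>>TCP4 array gave GIS 0.16 and 0.72 (adjusted p = 0.681 and 0.0712) and SIM -0.31 and -0.85 (adjusted p = 0.349 and 0.0282), so SIM was called without the second. All comparisons with BLS>>TCP4 share its 2 arrays, so they do not add to one another.

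**Figure D3:**
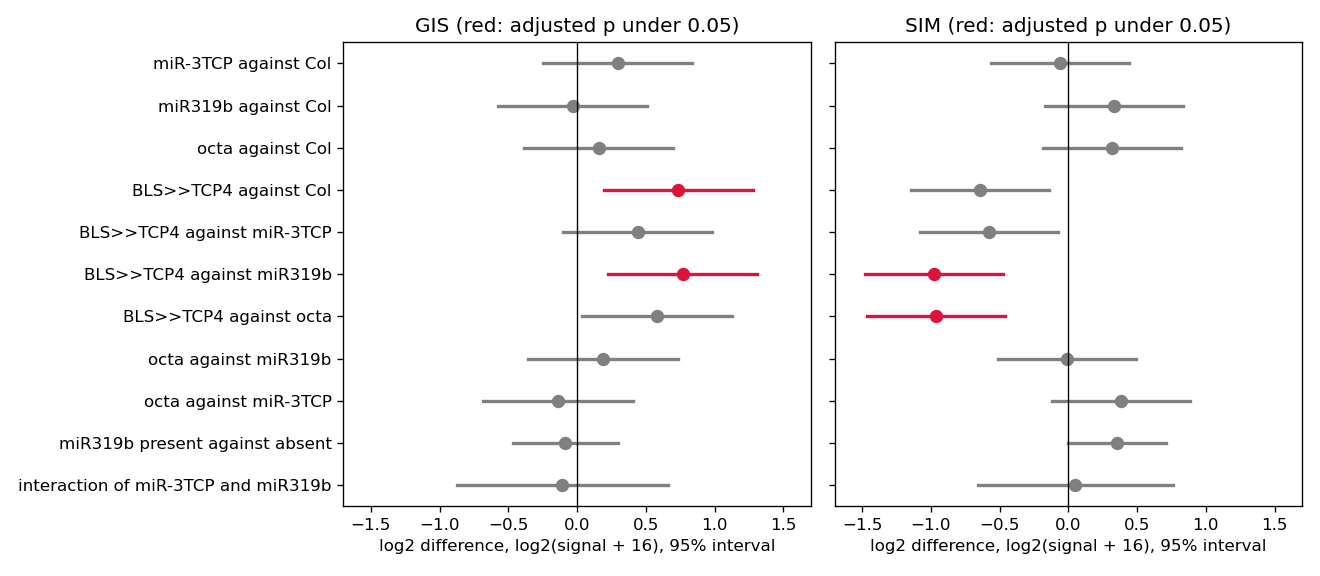
Log2 differences of GIS (left) and SIM (right) in 11 comparisons, the first named group minus the second, on the log2(signal + 16) scale. Points are estimates, lines are 95% intervals from the limma model, and red marks an adjusted p under 0.05, which for GIS comes from a probe set that passed the filter only through BLS>>TCP4. GIS is to the right of 0 and SIM to the left of 0 in all 4 comparisons of BLS>>TCP4, and every interval between groups of the Col accession, except that of SIM for miR319b present against absent (0.001 to 0.711), holds 0.

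Lowering CIN-TCP genes was addressed by comparing each microRNA group with Col, and neither gene passed in any of them. For GIS the log2 differences were 0.30 ± 0.24 in miR-3TCP, -0.03 ± 0.24 in miR319b and 0.16 ± 0.24 in octa (SE, limma adjusted p = 1.0, 0.955 and 0.843). For SIM they were -0.06 ± 0.22, 0.33 ± 0.22 and 0.32 ± 0.22 (adjusted p = 1.0, 0.423 and 0.578). The 95% intervals of these differences together ran from -0.58 to 0.84 for GIS and from -0.57 to 0.83 for SIM. Single arrays moved them. GIS in miR-3TCP against Col was 0.50 without the first miR-3TCP array and 0.09 without the second, and in octa against Col 0.06 without the first octa array and 0.25 without the second. SIM followed the Col array that was kept, with -0.38, 0.0151 and 0.00285 in miR-3TCP, miR319b and octa without the first Col array, and 0.25, 0.65 and 0.63 without the second. In these comparisons 0.00733%, 4.02% and 1.82% of tested probe sets were called for miR-3TCP, miR319b and octa. GIS did not overlap with Col in miR-3TCP and in octa, which 18.6% and 17.4% of tested probe sets also showed in that direction. SIM overlapped with Col in all 3 groups, because 1 Col array was as bright as the miR319b and octa arrays.

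Plants with and without miR319b were compared over 8 arrays, those of miR319b and octa together against those of Col and miR-3TCP together. SIM was at 130.6 to 141.4 on the 4 arrays with miR319b and at 81.8 to 135.4 on the 4 without, so that only the second Col array reached into the range of the others. The log2 difference of SIM was 0.36 ± 0.16 (SE, limma adjusted p = 0.214), and the exact two-sided permutation test over the arrays gave p = 0.0857, where 0.0286 is the smallest p that 4 against 4 arrays allow. Without the first Col array the difference was 0.20 (adjusted p = 0.501), and without the second it was 0.51 (adjusted p = 0.097). For GIS it was -0.09 ± 0.17 (adjusted p = 0.818, exact permutation p = 0.657). In this comparison 9.65% of tested probe sets were called. All arrays with miR319b were at 17 or 18 DAS and all without it at 14 DAS, so age and miR319b cannot be told apart here.

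With miR-3TCP added to miR319b, SIM was at nearly the same level, 135.8 ± 7.32 in octa and 137.0 ± 6.11 in miR319b (SD, n = 2 each; log2 difference -0.01 ± 0.22, SE, limma adjusted p = 0.992, 95% interval -0.51 to 0.49). Its sign turned with quantile normalization (0.02) and with median centring (0.01). GIS differed by 0.19 ± 0.24 (adjusted p = 0.824). By limma 0 of the tested probe sets were called in this comparison (0%), and 1347 had an unadjusted p under 0.05. In octa against miR-3TCP, SIM differed by 0.38 ± 0.22 (135.8 ± 7.32 in octa and 100.5 ± 6.25 in miR-3TCP, adjusted p = 0.554). GIS differed by -0.14 ± 0.24 there (adjusted p = 0.898), and 2.45% of tested probe sets were called. The SIM arrays did not overlap, as for 17.6% of tested probe sets that were higher. Octa was at 18 DAS, miR319b at 17 DAS and miR-3TCP at 14 DAS, so age and the added microRNA cannot be told apart. The interaction, the effect of miR-3TCP with miR319b minus that without it, was -0.11 ± 0.34 for GIS and 0.05 ± 0.32 for SIM (adjusted p = 0.965 and 0.981), with 0.00733% called.

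Ordered by mean signal, GIS was highest in BLS>>TCP4, followed by miR-3TCP, octa, Col and miR319b, and no neighbours in that order differed by a call. SIM was highest in miR319b, followed by octa, Col, miR-3TCP and BLS>>TCP4. Here too no neighbours differed by a call. For SIM the calls lay between BLS>>TCP4 and miR319b or octa. Across all 10 arrays the log2 signals of GIS and SIM had a Pearson r of -0.68, and across the 8 arrays of the Col accession it was 0.02, so the opposite course of the genes lay in the BLS>>TCP4 arrays. These values describe the arrays, which share scaling and groups.

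Genes on the fixed lists of photosynthetic leaf and root markers differed in BLS>>TCP4. RCA and PSAN, genes of Rubisco activase and of a photosystem I subunit, were the 2 of 4 photosynthetic leaf markers with a named probe set, and their summed signal was 10500 to 10570 in BLS>>TCP4 and 4581 to 5209 over the other 8 arrays. Both rose against Col (log2 differences of 1.06 and 1.04, limma adjusted p = 3.22e-05 and 0.000181). PYK10, the 1 of 4 root markers measured, had 992 and 1508 in BLS>>TCP4 and 1828 to 2113 elsewhere, and fell against Col (-0.63 ± 0.165, SE, limma adjusted p = 0.0202). In BLS>>TCP4 against Col 17.4% of all tested probe sets were called higher and 8.71% lower. None of these markers was at 0 on any array. Their part in the GIS and SIM results was not tested. In these bulk samples a change in the mix of cells and a change of SIM transcript in each cell cannot be told apart. Neither can be told apart from the Ler accession, which only the BLS>>TCP4 arrays had.

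Of 84 other genes on 8 lists of trichome biology, 15 had a named probe set and 8 of them passed the filter. None of the 8 was called in miR-3TCP, miR319b or octa against Col, where 0.00733%, 4.02% and 1.82% of all tested probe sets were called. In BLS>>TCP4 against Col 1 was called lower and 0 higher, where 8.71% and 17.4% of all tested probe sets were, so 1 lower of 8 is near the share of the whole array. The median log2 difference of the 8 was -0.09 and that of all tested probe sets 0.10. The gene called was AT5G06700, on the fixed lists as TBR (TRICHOME BIREFRINGENCE), which is needed for crystalline cellulose in trichome walls. It had 133.5 and 162.0 in BLS>>TCP4 against 269.8 and 248.8 in Col (-0.75 ± 0.15, SE, limma adjusted p = 0.00583). Its signals in the microRNA groups, 177.5 to 222.3, were between those of BLS>>TCP4 and Col, and none of those groups differed from Col by a call. It was also called lower in BLS>>TCP4 than in octa (-0.46, adjusted p = 0.038), where 9.87% of all tested probe sets were called lower.

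Of the remaining 7 genes, 6 act in trichome shape or its hormonal control. BRK1, a subunit of the SCAR complex that starts actin branching, had signals of 55.6 and 42.7 in miR-3TCP, 34.2 and 30.3 in miR319b, 35.7 and 45.6 in octa, 76.7 and 75.9 in BLS>>TCP4, and 59.8 and 47.6 in Col. It was called higher in BLS>>TCP4 than in octa (0.71, limma adjusted p = 0.00771), miR319b (0.94, adjusted p = 0.00185) and miR-3TCP (0.51, adjusted p = 0.0474), though not than in Col (0.41, adjusted p = 0.0913). Against octa, miR319b and miR-3TCP, 24.2%, 21.3% and 16.2% of all tested probe sets were called higher, and 1 of the 8 list genes in each. These comparisons share the 2 BLS>>TCP4 arrays, and those with miR319b and miR-3TCP were added after the data had been seen. AN, ANGUSTIFOLIA, which controls trichome branching and leaf width, had -0.37 in BLS>>TCP4 against Col (adjusted p = 0.0751). CRK, the ARPC5 subunit of the actin-nucleating ARP2/3 complex, had -0.31 (adjusted p = 0.197), and PIR121, another SCAR complex subunit, -0.03 (adjusted p = 0.877). SPK1, which activates the small GTPases upstream of that complex, had 0.20 (adjusted p = 0.333). SPY, a repressor of gibberellin signalling, had -0.15 (adjusted p = 0.514). AT1G08180, on the list of SIM-related genes by locus and unnamed in the gene tables, had -0.005 in BLS>>TCP4 against Col (adjusted p = 0.986). Of the 15 genes on that list it was the only one tested.

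**Figure D4:**
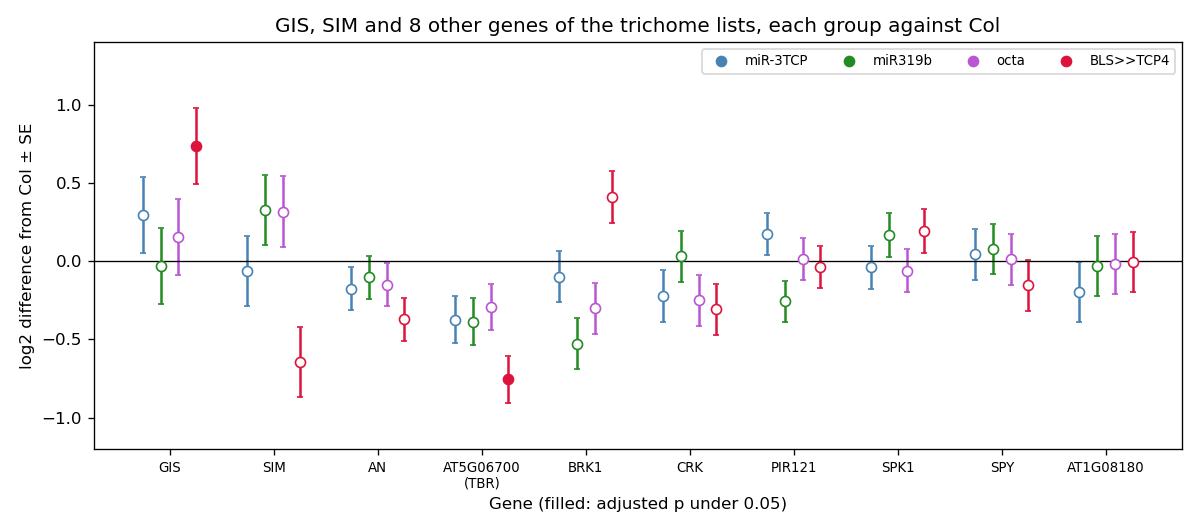
Log2 difference from Col (vertical axis, log2(signal + 16) scale, error bars SE) of GIS, SIM and the 8 other tested genes of the trichome lists, in miR-3TCP, miR319b, octa and BLS>>TCP4. Filled points had an adjusted p under 0.05. The filled points are GIS (0.74), which passed the filter only through BLS>>TCP4, and AT5G06700 (-0.75), both in BLS>>TCP4.

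The probe sets most like each gene were sought among 7348 others with 1 gene, by Pearson r of log2 signals over the 10 arrays, as a description. Closest to GIS were AT5G49950 (r = 0.955), AT2G14110 (0.953), AT4G27620 (0.936), AT3G18500 (0.929) and AT5G50370 (0.926), and most opposite AT2G48100 (-0.959), AT4G18400 (-0.953) and AT3G13062 (-0.942). Over the 8 arrays of the Col accession, which are among these 10, the r of the 5 closest was 0.762 to 0.908. Their log2 differences in BLS>>TCP4 against Col were 0.43 to 0.56, a direction that follows from their choice by likeness to GIS over the same arrays. AT4G27620, as an example, had 74.3 ± 16.2 in BLS>>TCP4 and 44.7 ± 4.12 in Col (SD, n = 2 each).

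Closest to SIM were AT2G22900 (r = 0.958), AT2G45600 (0.954), AT4G29030 (0.945), AT4G32460 (0.942) and AT1G80940 (0.941), with r from 0.791 to 0.859 over the 8 arrays of the Col accession. Most opposite were AT1G09620 (-0.940), AT3G61770 (-0.938) and AT5G52070 (-0.934). The brightest of the 5 closest, AT4G29030, had 930.8 ± 216 in BLS>>TCP4 and 1678 ± 175 in Col (SD, n = 2 each), where the direction again follows from the choice. GIS ranked 6126 in likeness to SIM and SIM ranked 6748 in likeness to GIS.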

How the data were processed

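The deposited values are linear intensities, 1 per probe set. MAS5 made them, per the submitters' processing notes, which name no version or settings. No detection calls or scan batches were used. Probe sets were named through the platform annotation and, by Entrez identifier, a RefSeq table of TAIR10.1. Of 22810 probe sets 64 array controls were removed, 13513 of the rest had 1 gene, and 13648 with a mean at or above the 40th percentile (27.2) were tested. All 10 arrays entered 1 linear model of log2(value + 16) with a mean per group and 5 residual degrees of freedom (limma 3.58.1 in R 4.3.3, eBayes with an intensity trend). Adjusted p-values are Benjamini-Hochberg over all tested probe sets of a contrast, called under 0.05. Differences on this scale understate the change of dim probe sets such as GIS. The number of arrays limits the precision. Nothing in the labels says that the arrays of a group came from separately grown plants, so the p-values rest on a spread between arrays that may be technical. The model was tested on simulated data with the same spread on every array. In the real data the spread between replicates was larger in BLS>>TCP4, so the simulation does not check the p-values of its comparisons.

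There were 9 contrasts and 2 added later, with 20 alternatives and 2 added later. The genes named were GIS and SIM, called members of the lists (or the 2 of smallest p), and the 5 most and 3 least alike probe sets. AN, CRK, PIR121, SPK1, CLV3, TRY, BLT and BIN4 are outside that rule and were named after their values were seen. The members and lists were chosen with earlier results of these data known. Replicate numbers are not said to mark a shared batch, and replicates of the same number did not deviate together in every pair of groups.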

Additional observations from a re-analysis of the deposited data

How the results depend on the processing

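The 22 differences of GIS and SIM were recomputed under up to 22 alternatives, 465 values in all, of which 419 kept direction and side of the threshold. For BLS>>TCP4 against Col the GIS call was lost with a pseudocount of 1 (1.06), quantile normalization (0.71), median centring (0.71), no filter, the replicate block, array weights and only the groups compared (0.74 each), and in 7 of 10 fits that left out 1 array (0.45 to 1.02 over all 10). With the filter at the 60th percentile GIS was not tested. SIM in that comparison was called with median centring (-0.68) and the replicate block (-0.64), and ranged from -0.96 to -0.33 without 1 array. Against miR319b the GIS call was lost with median centring (0.71), no filter, array weights and only the groups compared (0.77 each), and ranged from 0.49 to 1.05 without 1 array. Without 1 array, BLS>>TCP4 against octa ranged from 0.30 to 0.86 for GIS and from -1.23 to -0.69 for SIM, and SIM against miR-3TCP from -0.85 to -0.31. The cause was not tested.

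Signs turned only where the difference was small. SIM in octa against miR319b was 0.019 with quantile normalization and 0.014 with median centring. Without 1 array it ranged from -0.061 to 0.037, GIS there from -0.079 to 0.456, SIM in miR-3TCP against Col from -0.38 to 0.25, GIS in miR319b against Col from -0.30 to 0.24, GIS in octa against miR-3TCP from -0.345 to 0.066, GIS for miR319b present against absent from -0.219 to 0.048, and the interaction from -0.37 to 0.16 for GIS and from -0.26 to 0.37 for SIM.

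Counts of called probe sets moved by more than 1.5 times under some alternatives. They ranged from 1672 to 3818 for BLS>>TCP4 against Col (3564 as reported), 3047 to 5077 against octa (4648), 2588 to 4945 against miR319b (4390), 1490 to 3773 against miR-3TCP (3246), 9 to 1352 for miR319b against Col (549), 8 to 681 for octa against Col (249), 6 to 910 for octa against miR-3TCP (335), 529 to 2105 for miR319b present against absent (1317), 1 to 5 for miR-3TCP against Col (1), 0 to 4 for octa against miR319b (0) and 0 to 2 for the interaction (1). Correlations of replicate deviations between groups ran from -0.401 to 0.447, a mix that cannot decide whether replicate numbers pair some of the arrays. The block gave 3604 calls for BLS>>TCP4 against Col.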

Other observations

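Of the trichome list genes with a named probe set, 7 were below the filter, with signals of 2.36 to 38.2 over all arrays, and were not tested. TRY, a small MYB-related inhibitor that keeps neighbouring cells from becoming trichomes, had 16.7 and 13.6 in miR-3TCP, 17.6 and 30.8 in miR319b, 35.2 and 27.3 in octa, 24.4 and 18.8 in BLS>>TCP4, and 19.9 and 17.8 in Col. BLT, which acts in trichome branching, had 21.8 and 15.6 in miR-3TCP, 38.2 on both miR319b arrays, 24.9 and 29.6 in octa, 17.2 and 17.7 in BLS>>TCP4, and 23.2 and 23.6 in Col. BIN4, a gene of endoreduplication, had 36.4 and 16.5 in miR-3TCP, 16.3 and 19.5 in miR319b, 21.3 and 11.9 in octa, 20.1 and 29.5 in BLS>>TCP4 and 20.7 and 19.1 in Col. These genes were chosen after their values were seen.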
